A study of Bos taurus with 2 samples.

Results

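Intermediately methylated windows are stretches of 1 kb in which the sperm DNA of both bulls was neither largely methylated nor largely unmethylated. The 30678 windows described here were chosen by the methylation levels of both libraries: they lay outside runs of 20 or more CpG sites with gaps of at most 50 bp, held 5 or more CpGs, had at least 100 reads and a mean of 10 to 60 reads per CpG in each library, and had levels from 40% to 60%. The level of a window was its methylated reads over all its reads, both summed over its CpGs. There were 2484608 autosomal windows with a CpG, and 1471340 of them, called eligible windows below, met every condition other than the level. The intermediate windows were 2.09% of these (exact Clopper-Pearson 95% interval 2.06 to 2.11%), spanned 30.7 Mb and held 319701 CpGs.

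The samples were sperm of a pair of monozygotic Holstein bulls, Bull1 and Bull2, which the series describes as divergent in fertility. The semen was frozen, and the study collected it from both at the same age and within the same week. Each bull had 1 library of whole-genome bisulfite sequencing, in which unmethylated cytosines are converted and the remaining ones are read as methylated. There were no replicates, so every comparison of Bull1 with Bull2 is one of libraries and has no replicate error. The autosomal CpGs had a mean of 20.3 reads in Bull1 and 18.7 in Bull2. The study reports the opposite order, with the higher average read depth in Bull2. That depth may be averaged over other positions than the autosomal CpGs used here, and the reason for the opposite order was not tested.

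A sperm cell carries a haploid genome, so at a given CpG it holds the methyl group or it does not. A level in sequenced sperm DNA is a share of reads drawn from many cells. What produced intermediate levels was not tested here. In mammals the male germ line is demethylated and then methylated again before sperm form, and most of the genome of mature sperm is highly methylated. The best known exceptions are CpG islands, dense clusters of CpGs that often mark promoters, and the rule leaves out windows that touch a run of CpGs as defined above, though not every CpG-rich window. A window of intermediate level can hold CpGs that are all intermediate, or unmethylated and methylated CpGs side by side, and the level does not tell these apart.

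Intermediate levels were rare. Eligible windows had a median level of 88.8% in Bull1 and 84.2% in Bull2, and 10% of them lay below 72.9% and 69.1%. The intermediate windows had a median of 52.4% in Bull1 (quartiles 47.8 and 56.3%) and 50.5% in Bull2 (46.1 and 54.7%). Summed over them, 3603589 of 6970611 reads were methylated in Bull1 and 3121176 of 6201795 in Bull2, or 51.7% and 50.3%. There was no gap in levels at either limit. The windows nearest to the lower limit had a lower level of 40% inside it and of 39.96% outside it. At the upper limit the nearest windows inside reached 60%, and the nearest outside 60.04%.

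**Figure D1:**
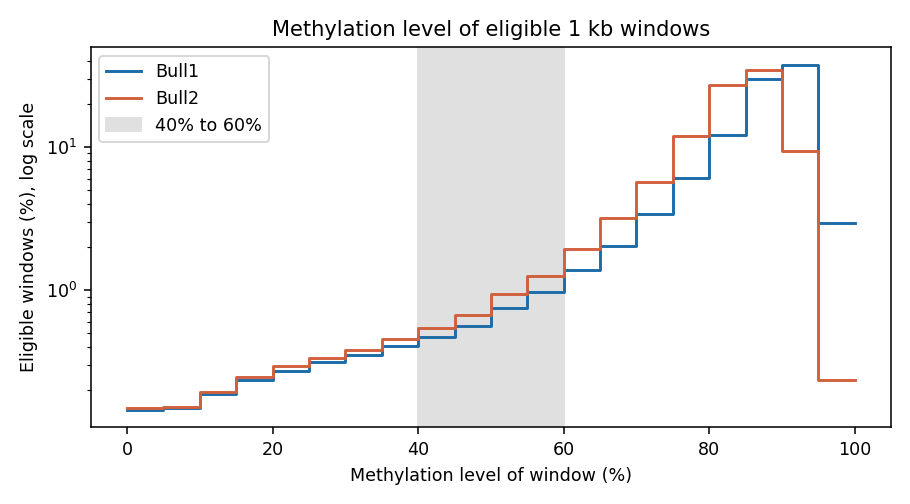
Percent of eligible 1 kb windows (y axis, log scale) by methylation level in steps of 5 percentage points (x axis) for the library of each bull, with the range from 40% to 60% shaded. The share of windows falls from the methylated end through the shaded range without a separate peak there, and the curve of Bull2 lies to the left of that of Bull1 at the methylated end.

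CpG number and depth were close to those of eligible windows. The intermediate windows held a median of 9 CpGs (quartiles 7 and 12) against 10 (7 and 13) in eligible windows. Median coverage was 22.6 reads per CpG in Bull1 in both sets, and 20 in Bull2 in both sets. Windows are no replicates of a condition and neighbours are not independent, so differences between sets of windows are given here and below as values without a test, and their intervals cover counting error only.

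To see the level in a library that had no part in the choice, windows were taken by the level of 1 library and read in the other. Of 40769 eligible windows at 40% to 60% in Bull1, 75.2% (74.8 to 75.7%) were also in that range in Bull2, while 11.6% lay below it and 13.2% above it. Of 50562 windows chosen in Bull2, 60.7% (60.2 to 61.1%) were in the range in Bull1, 5.35% lay below it and 34.0% above it. For comparison, among all 1471340 eligible windows 40769 were in the range in Bull1 and 50562 in Bull2. Windows at the other extreme were few. Of the windows chosen in Bull1, 8 were below 20% and 3 above 80% in Bull2, and of those chosen in Bull2, 6 were below 20% and 153 above 80% in Bull1. The median level went from 52.5% in Bull1 to 50.7% in Bull2 in the first set, and from 52.8% in Bull2 to 56.1% in Bull1 in the second.

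The next question was how the CpGs inside a window were arranged. For each window and library a heterogeneity index was computed from CpGs with at least 5 reads in both libraries, as the variance of CpG levels beyond that of read sampling, divided by the largest variance that the mean level allows. The index is near 0 where CpGs differ by no more than sampling, and near 1 where each CpG is fully methylated or unmethylated. At least 5 such CpGs were present in 30541 windows, and the other 137 were left out. Its median was 0.206 in Bull1 (quartiles 0.0893 and 0.508) and 0.185 in Bull2 (0.0768 and 0.455). The choice of windows used the mean level and not this spread. Across the 30541 windows the index of Bull1 and that of Bull2 had a Pearson's r of 0.943 and a Spearman's rho of 0.894, given as a description because both libraries share the same CpG positions and similar depth.

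**Figure D2:**
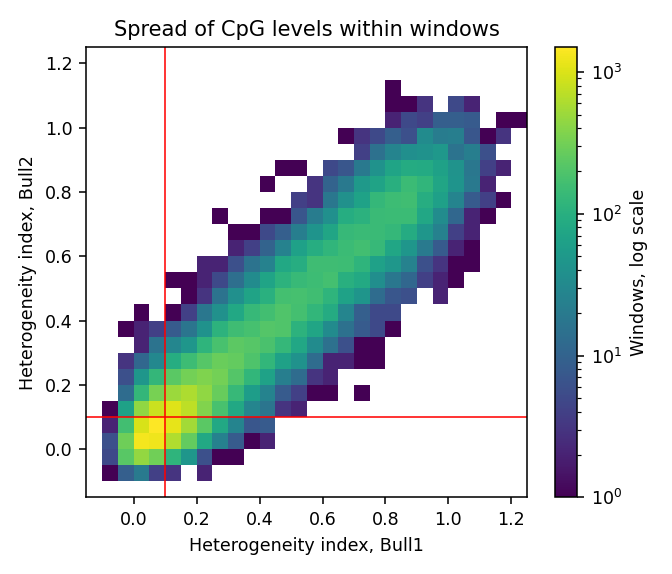
Heterogeneity index of intermediate windows in Bull1 (x axis) and Bull2 (y axis), both without unit, with the number of windows per cell as color on a log scale and red lines at 0.1. The windows follow the diagonal, are densest near the crossing of the red lines and extend to indices near 1 in both libraries.

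By these values the windows fell into 3 patterns. Uniform windows, with an index under 0.1 in both libraries, numbered 6494 of 30541 or 21.3% (20.8 to 21.7%). Stepped windows, in which the level changed by at least 50 percentage points between a left and a right part, numbered 5921 or 19.4% (18.9 to 19.8%). The position of the step was placed in Bull1 alone and had to hold in Bull2, which was not used to place it. The remaining 18126 windows, 59.3% (58.8 to 59.9%), had neither pattern, and 1 window that met both definitions was counted as uniform. With an index limit of 0.2 in place of 0.1, 45.4% of windows were uniform, so the share depends on where the limit is set. Eligible windows of neighbouring levels, grouped by the mean of both libraries, also had both patterns. The uniform share was 33.0% at 20% to 30%, 26.6% at 30% to 40% and 16.9% at 60% to 70%. The stepped share was 22.4%, 23.3% and 10.4% in the same groups. The patterns were thus not particular to intermediate windows.

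The CpGs themselves showed how the patterns differ. Among CpGs that both libraries covered by at least 10 reads, 48.5% in uniform windows were at 40% to 60% in Bull1 and 49.0% in Bull2, while CpGs below 20% made up 1.98% and 2.37% and CpGs above 80% made up 2.85% and 2.33%. A further 20.9% and 22.7% were at 20% to 40%, and 25.8% and 23.6% at 60% to 80%. In stepped windows 6.84% and 7.64% of CpGs were at 40% to 60%. There 33.1% and 33.3% of CpGs were below 20%, and 39.4% and 33.2% above 80%. These shares follow in part from how the patterns were defined. The remaining windows lay between, with 25.4% and 27.0% of CpGs at 40% to 60%.

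The deviations of CpG levels from the level of their window were related between the libraries. Over 269244 CpGs of that depth, the deviations in Bull1 and Bull2 had a Pearson's r of 0.888, with 0.954 in stepped windows, 0.878 in the remaining ones and 0.580 in uniform ones. CpGs of a window share reads, so these are descriptions, and the order of the patterns follows largely from their definitions. Neighbouring CpGs 2 to 10 bp apart differed by a median of 11.8 points in Bull1 and 11.4 in Bull2, and those over 200 and up to 500 bp apart by 23.3 and 22.8. In uniform windows this rose from 11.3 to 15.5 points in Bull1 over the same distances, and in stepped windows from 7.14 to 25.

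The uniform windows with the most CpGs, among those with a mean of at least 15 reads per CpG in each library, show the first pattern. A window of 37 CpGs on chromosome 4 from 113648001 to 113649000 (UMD3.1) had 344 of 775 reads methylated in Bull1, 44.4% (40.9 to 48.0%), and 348 of 809 in Bull2, 43.0% (39.6 to 46.5%). A read over several CpGs was counted at each of them, so these intervals and those of the windows and runs named below are too narrow. The indices of this window were 0.08 in both libraries. It was followed by a window of 36 CpGs on chromosome 7 from 106009001 to 106010000, with 57.8% in Bull1 and 52.3% in Bull2, and by a window of 33 CpGs on chromosome 24 from 4855001 to 4856000, with 50.9% and 53.1%. Both of these had flanks above 80% on each side in both libraries, so a window that is uniform by its index can have methylated flanks. A low index does not mean that all CpGs are alike. In the window on chromosome 7, the CpG at 106009655 had 1 of 21 reads methylated in Bull1 and 0 of 18 in Bull2. The CpG at 106009991, near its end, had 29 of 31 and 19 of 24. The others were a window of 32 CpGs on chromosome 23 from 52469001 to 52470000, with 53.5% and 53.7%, and a window of 32 CpGs on chromosome 13 from 82579001 to 82580000, with 46.5% and 49.7%.

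The second is shown by stepped windows ranked by the smaller of their steps in Bull1 and Bull2, among those with a mean of at least 15 reads per CpG. On chromosome 3 from 86645001 to 86646000, 88 of 152 reads were methylated in Bull1 (57.9%, 49.6 to 65.8%) and 75 of 136 in Bull2 (55.1%, 46.4 to 63.7%). Its first 4 CpGs, covered by 12 to 17 reads each, had 0 methylated reads in either library. The other 5 CpGs were at 87.5% to 100% in Bull1 and 88.2% to 100% in Bull2. The step was 95.7 points in Bull1 and 94.9 in Bull2. The windows that followed had smaller numbers of CpGs, 7 on chromosome 11 from 30903001 to 30904000, 5 on chromosome 8 from 38219001 to 38220000, 6 on chromosome 4 from 76157001 to 76158000 and 6 on chromosome 1 from 15108001 to 15109000, with steps of 92.3 to 96.1 points in size over both libraries.

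**Figure D3:**
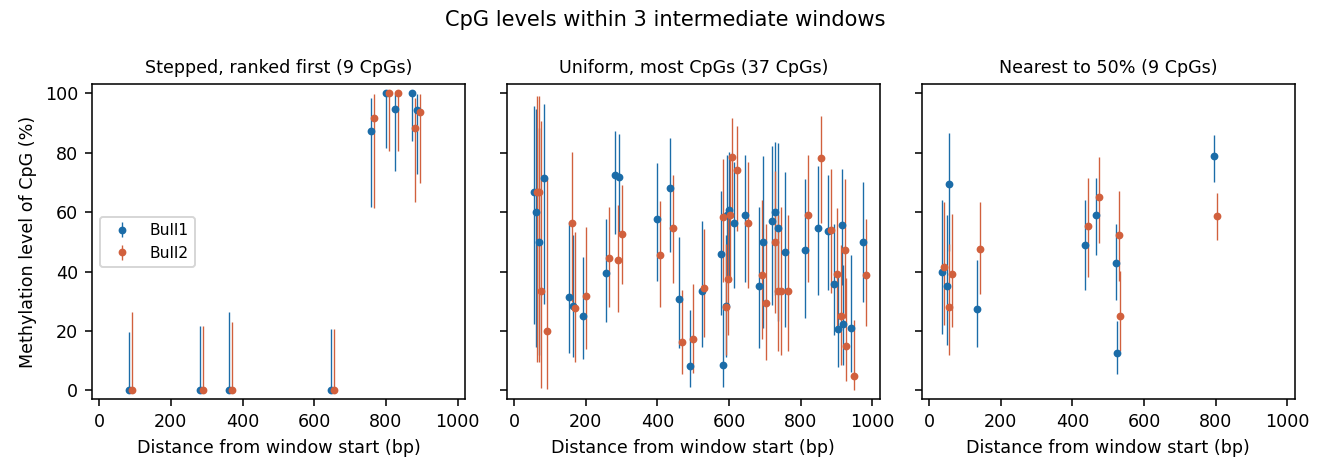
Methylation level (y axis, percent) of each CpG by its distance from the window start (x axis, bp), with exact 95% intervals. Shown are the stepped window that ranked first by its smaller step over both libraries, the uniform window with the most CpGs and the window nearest to 50%. The stepped and uniform windows were picked among those with a mean of at least 15 reads per CpG in each library. The window nearest to 50% was picked among those with at least 400 reads in each. The points of the bulls are drawn 8 bp apart for legibility. The first window has 4 CpGs at 0% and 5 near 100% in both libraries, while the CpGs of the others range from 4.76% to 78.6% (uniform) and from 12.7% to 78.8% (nearest to 50%) over both libraries.

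The window nearest to 50% among those with at least 400 reads in each library lay on chromosome 21 from 1562001 to 1563000, with 224 of 448 reads methylated in Bull1 (50%) and 227 of 452 in Bull2 (50.2%). Its 9 CpGs ranged from 12.7% to 78.8% in Bull1 and from 25% to 65.2% in Bull2. Coverage there was 49.8 and 50.2 reads per CpG, over 2 times the median. The last CpG alone had 113 and 157 reads.

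The windows with the most CpGs held 49, 49, 48, 46 and 46. The first, on chromosome 19 from 38424001 to 38425000, was stepped, with 40.9% in Bull1 and 46.4% in Bull2 and a fall along the window by 59.4 and 57.7 points. Its depth was uneven. The CpG at 38424055 had 31 of 34 reads methylated in Bull1 and 42 of 46 in Bull2, while that at 38424817 had 13 reads and 1 read. The level sums reads, so the deeper, methylated CpGs near the start of this window weighed more in it. The second, on chromosome 6 from 69453001 to 69454000, had 55.6% and 47.4% and an index of 0.11 and 0.02. The other 3 were uniform. They lay on chromosome 7 from 110996001 to 110997000 with 55.9% and 58.5%, on chromosome 7 from 112383001 to 112384000 with 57.9% and 56.3%, and on chromosome 20 from 7210001 to 7211000 with 58.2% and 56.7%.

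In stepped windows the median step was 68.0 points in Bull1 and 64.2 in Bull2. Methylation rose with position in 2980 of 5921 stepped windows or 50.3%. Among the 7768 windows with a step of at least 50 points in Bull1, the level changed in the same direction in Bull2 in 99.97%.

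Some low CpGs stood alone between methylated neighbours. A CpG was called isolated here when it was at 10% or less in both libraries and both neighbouring listed CpGs were at 50% or more in both. Of the intermediate windows, 5519 or 18.0% held such a CpG, against 8.11% of eligible windows. Such a CpG lowers the level of its window, so the higher share follows in part from the choice by level. Isolated low CpGs were found in 11 uniform windows (0.169%), in 21.5% of stepped windows and in 23.3% of the remaining ones. When these CpGs were left out, 26337 windows (85.8%) still met the rule, and 2991 (9.75%) rose above 60% in both libraries. Among uniform windows 99.97% still met it. In uniform windows the low share with such a CpG and the high share kept follow largely from their definition, since such a CpG raises the index. The genotype of the bulls was not used here, and a reference CpG that they lack could be read as unmethylated in all or some of its reads. Its part in these windows was not tested.

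The surroundings of the windows were not used to choose them. The flank of a side was the pooled level of the 3 adjoining windows, called methylated at 70% or more in both libraries, low at 30% or less in both and between otherwise. Both flanks were between in 13390 intermediate windows, 43.6% (43.1 to 44.2%), against 3.38% of eligible windows. Both were methylated in 6274, 20.5% (20 to 20.9%), against 80.7%. A methylated flank on one side and a low one on the other was seen in 1636, 5.33% (5.08 to 5.59%), against 2.22%. Both were low in 0.339% against 0.302%. Flanks of the between class were also frequent around windows of neighbouring levels. When eligible windows were grouped by the mean of both libraries, both flanks were between in 22.2% at 20% to 30%, 43.6% at 30% to 40%, 49.1% at 40% to 50%, 37.0% at 50% to 60% and 17.2% at 60% to 70%.

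The patterns differed in their flanks. Both flanks were between in 69.0% of uniform windows (67.9 to 70.1%), in 9.07% of stepped windows (8.35 to 9.83%) and in 45.9% of the remaining ones. Both were methylated in 8.16%, 30.6% and 21.6%. A methylated and a low flank were found in 0.724% of uniform and 17.9% of stepped windows. In the 1061 stepped windows with a methylated and a low flank, the low part of the window lay on the side of the low flank in 1035, 97.5% (96.4 to 98.4%), so the level fell toward the low flank.

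With distance the mean level rose toward that of eligible windows, by different amounts in the patterns. The windows 1 kb away had mean levels of 61.6% before and 62.0% after the intermediate window in Bull1, and 58.7% and 59.1% in Bull2. At 10 kb the means were 74.0% on both sides in Bull1 and 70.4% and 70.5% in Bull2, against 83.8% and 79.6% around eligible windows. At 100 kb after the window they were 78.1% and 74.2% in Bull1 and Bull2, against 83.6% and 79.5%. Around uniform windows the means at 10 kb after the window were 68.0% and 64.8%, and at 100 kb 73.6% and 69.6%. Around stepped windows they were 82.0% and 77.9% at 10 kb, and 82.7% and 78.7% at 100 kb. At 500 kb after the window the means in Bull1 were 77.6% around uniform windows, 83.3% around stepped windows and 80.2% around all intermediate windows, against 83.5% around eligible windows, and in Bull2 they were 73.7%, 79.2% and 76.3% against 79.4%. The level around uniform windows was thus still below that around eligible windows at the largest distance read.

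**Figure D4:**
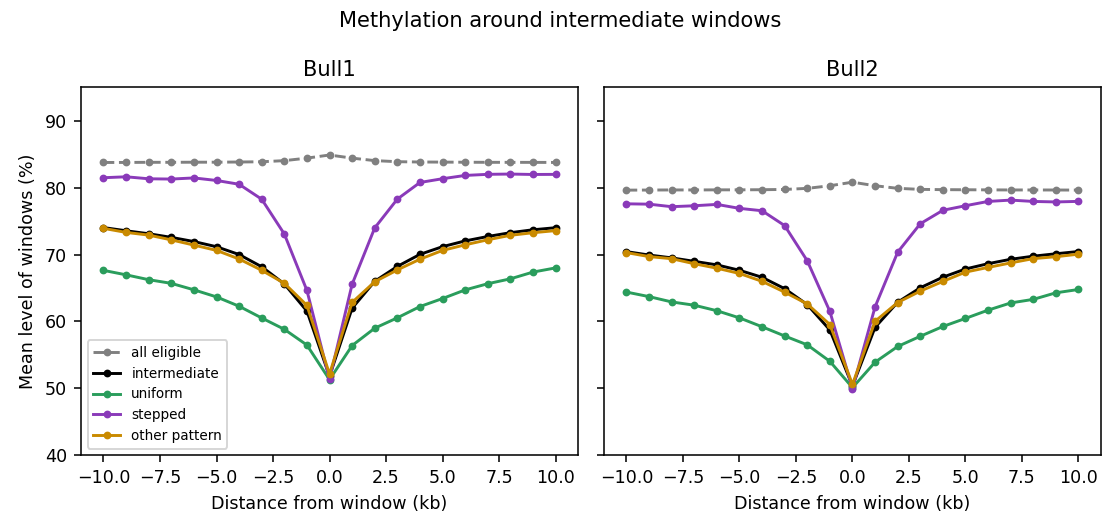
Mean methylation level (y axis, percent) of 1 kb windows by distance from the central window (x axis, kb) in Bull1 and Bull2, for all eligible windows, for intermediate windows and for their 3 patterns. In both libraries the line of stepped windows is back within 3 points of the eligible line at 10 kb, while that of uniform windows stays over 10 points below it.

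Proximity to CpG-dense runs also differed by pattern. Of intermediate windows, 3396 or 11.1% (10.7 to 11.4%) lay within 2 kb of a run of 20 or more CpGs, against 6.42% of eligible windows. The share was 31.0% (29.9 to 32.2%) in stepped windows and 3.83% (3.38 to 4.33%) in uniform windows. The median distance to a run was nevertheless longer for intermediate windows, 48.5 kb, than for eligible ones, 37.6 kb. It was 20.1 kb for stepped windows, 60.8 kb for uniform windows and 54.0 kb for the remaining ones.

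Some intermediate windows adjoined each other. Where the next window was eligible, it was intermediate in 4305 of 17344 cases after an intermediate window, or 24.8%, against 1.79% after any eligible window. There were 23008 intermediate windows with no intermediate neighbour, including those whose neighbours were not eligible. The rest formed 2664 runs of 2 windows, 537 of 3, 115 of 4, 32 of 5, 11 of 6, 3 of 7 and 3 of 8.

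Of the 3 runs of 8 windows, the one with the most reads lay on chromosome 12 from 58060001 to 58068000, with 120 CpGs. Bull1 had 1338 of 2422 reads methylated there, 55.2% (53.2 to 57.2%), and Bull2 1047 of 2013, 52.0% (49.8 to 54.2%). Its windows ranged from 47.3% to 58.3% in Bull1 and from 43.2% to 57.7% in Bull2. The run on chromosome 25 from 11440001 to 11448000 had 51.6% and 49.97% over 106 CpGs, and that on chromosome 23 from 6432001 to 6440000 had 46.7% and 46.8% over 72 CpGs. Of their 24 windows 6 were uniform and 0 were stepped.

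The windows were spread unevenly over the autosomes. Chromosome 15 had the highest share, 1611 of 48512 eligible windows or 3.32% (3.16 to 3.48%), and chromosome 24 the lowest, 583 of 41659 or 1.40% (1.29 to 1.52%). Of the windows with a pattern value on chromosome 15, 30.1% were uniform and 10.9% stepped. The first 5 Mb of the autosomes, the centromere side of these acrocentric chromosomes, had 4416 intermediate windows among 78759 eligible ones, 5.61% (5.45 to 5.77%). The last 5 Mb had 1.97% (1.88 to 2.07%) and the rest 1.88% (1.86 to 1.90%). Eligible windows in the first 5 Mb had a pooled level of 77.5% in Bull1 and 74.2% in Bull2, against 85.2% and 81.2% in the rest. There 34.3% of intermediate windows were uniform, against 18.9% in the rest. Median coverage of intermediate windows was 23.3 and 20.9 reads per CpG there, and 22.5 and 20 in the rest.

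**Figure D5:**
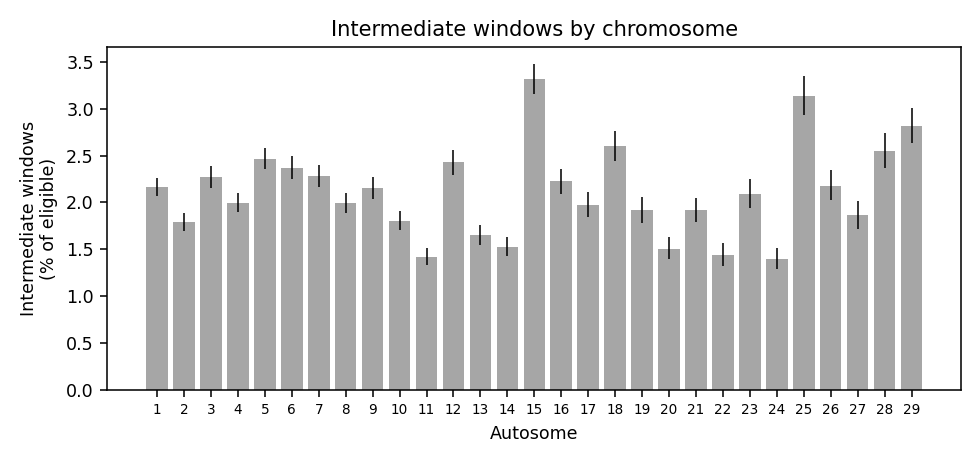
Intermediate windows as percent of eligible windows (y axis) for each autosome (x axis), with exact 95% intervals of counting error as bars. Chromosome 15 stands highest at 3.32%, followed by chromosome 25 at 3.14%, and chromosome 24 lowest at 1.40%.

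The last comparison asked how the libraries differed in these windows. The rule limits the difference to 20 points and used both levels, so these values describe the windows and carry no support of their own. Bull1 was higher in 18765 windows and lower in 11876, and 61.2% were higher in Bull1 (60.6 to 61.7%), against 82.2% of eligible windows. The median difference, Bull1 minus Bull2, was 1.36 points (quartiles -1.92 and 4.91), against 4.06 in eligible windows. A difference that is equal in odds would be larger in points near 50% than near 90%. The median odds ratio of methylation was 1.06 in intermediate windows. The pooled odds ratio of eligible windows was 1.32, and 14.7% of intermediate windows lay above that pooled ratio. A median over windows and a ratio of pooled reads are unlike measures, and medians by level are given below.

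When eligible windows were grouped by the mean of both libraries, which weights the bulls equally, the median difference rose with the level up to 80% to 90%. It was 0.118 points at a mean level of 0% to 10%, 0.305 at 10% to 20%, 0.555 at 20% to 30%, 1.13 at 30% to 40%, 1.90 at 40% to 50%, 2.63 at 50% to 60%, 3.43 at 60% to 70%, 4.11 at 70% to 80%, 4.57 at 80% to 90% and 3.1 at 90% to 100%. The median odds ratio was 1.02 to 1.05 in the groups below 40%, 1.08 at 40% to 50%, 1.11 at 50% to 60% and 1.48 at 80% to 90%. Bull1 was higher in 52.4% of windows at 0% to 10%, in 61.7% at 40% to 50% and in 85.7% at 80% to 90%. Small differences between the libraries were therefore not particular to intermediate windows, and windows of lower level had smaller ones. Within the intermediate windows the patterns had close medians, 1.14 points in uniform, 1.31 in stepped and 1.46 in the remaining windows, beside quartiles several points apart in each.

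A two-sided Fisher exact test of the summed reads of each window, with Benjamini-Hochberg adjustment over all 1471340 eligible windows, called 11.3% of them at a false discovery rate of 0.05. It called 484 intermediate windows, 1.58% (1.44 to 1.72%), of which 366 were higher and 118 lower in Bull1. Bull1 was higher in 75.6% of these, against 98.3% of all eligible windows called. Differences in the called intermediate windows were between 6.52 and 19.4 points, with a median of 13.5 where Bull1 was higher and 13.4 where it was lower. A read over several CpGs was counted at each of them, which makes these p-values too small. At a false discovery rate of 0.01 the test called 3.73% of eligible windows and 86 intermediate windows, 0.280% (0.224 to 0.346%).

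Applied to single CpGs covered by 5 or more reads in each library, the exact test called 81 of 23108714 on the autosomes, 0.000351%, after adjustment over all of them. The study reports far more differentially methylated cytosines over the genome by the test and limits that it states. The cause of this gap was not tested. None of the 310995 tested CpGs in intermediate windows was called, 0 of 310995, which allows a share of up to 0.000965% when 3 counts are taken as the limit for a count of 0, or 0.00119% by the exact 95% interval. At an unadjusted p of at most 0.05, 8319 or 2.67% (2.62 to 2.73%) of them passed, beside 2.91% of all tested CpGs. Of those 8319, 67.4% were higher in Bull1, against 88.2% of all CpGs that passed.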

How the data were processed

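Sperm DNA of both bulls was measured by whole-genome bisulfite sequencing, with 1 library each. According to the study's methods the authors filtered the reads, aligned them to the bovine build UMD3.1 with Bismark and bowtie2, and took depth from deduplicated reads. The submitters' processing notes also list FastQC 0.11.2 and Trim Galore 0.4.0. The deposited files give, per CpG, the counts of methylated, unmethylated and all reads without normalization, and the methylated fraction, which the authors computed as methylated over all reads. Whether reads of both strands were summed, and whether positions start at 0 or 1, is not given in the sources used here.

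Counts were summed in 1 kb windows of the 29 autosomes with Python 3.11.15, numpy 2.4.6, pandas 2.3.3, scipy 1.17.1 and numba 0.67.0. Libraries were compared by Fisher exact tests with Benjamini-Hochberg adjustment over all eligible windows or all autosomal CpGs tested. Tests and patterns were run on simulated counts drawn independently per window or per CpG. Such counts cannot show the effect of reads that span several CpGs. Odds ratios by mean level used 0.5 added to each count. The windows, patterns and limits were chosen with earlier results of these data known. Named windows were the 3 longest runs, the 5 uniform windows with most CpGs, the 5 with the largest smaller step over both libraries (both sets with at least 15 reads per CpG), the 5 with most CpGs, the window nearest to 50% and those nearest to the limits. Genes, elements and sequences of the windows were not analysed here. Alternatives were other level limits, depth and CpG minimums, unweighted levels, sites over 60 reads left out, Bull1 thinned to the depth of Bull2, shifted windows and other pattern settings.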

Additional observations from a re-analysis of the deposited data

How the results depend on the processing

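With 1 library per bull, depth limits what can be called, and a difference between bulls and between libraries cannot be told apart. No paired analysis was possible because there were no replicate libraries, and for the same reason no library was left out in turn. Leaving out isolated low CpGs was chosen after seeing the data. Where no cause is given by the construction of an alternative, the cause was not tested. All 36 other values stayed within 1.5 times a count or within the interval of a share. That limit is wide for counts. Within it, intermediate windows numbered from 20650 with at least 8 CpGs to 31936 with unweighted levels. Called intermediate windows numbered from 344 with a mean coverage of at least 15 to 512 with at least 8 CpGs. The number of intermediate windows was 10143 with levels of 45% to 55% and 56297 with 35% to 65%, as narrower and wider limits give. The share higher in Bull1 was 57.9% and 62.5% with these limits, 61.7% with a mean coverage of at least 15, 60.4% with at least 8 CpGs, 63.3% with unweighted levels and 60.1% without isolated low CpGs. The share above the pooled odds ratio of eligible windows was 14.7%. The share of windows chosen in Bull1 that were intermediate in Bull2 was 52.3% and 84.4% with the narrower and wider limits, 76.2% with a mean coverage of at least 15, 77.9% with unweighted levels and 74.3% without isolated low CpGs. The share of uniform windows was 20.8% with levels of 35% to 65%, 22.5% with at least 8 CpGs, 20.2% with unweighted levels, 24.9% without isolated low CpGs, 21.8% from CpGs with at least 10 reads and 45.4% with an index limit of 0.2. The share of stepped windows was 18.3%, 21.1%, 20.9%, 20.1% and 18.5% under the first 5 of these, and 17.5% with a mean coverage of at least 15. The share with methylated flanks on both sides was 18.9% and 23.7% with the narrower and wider limits, 19.4% with a mean coverage of at least 15, 21.1% with unweighted levels, 19.5% without isolated low CpGs and 15.2% with 1 flanking window per side. At a false discovery rate of 0.01, 86 intermediate windows were called in place of 484, beside 3.73% of eligible windows in place of 11.3%.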

Other observations

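Intermediate windows were found in most of the autosomal blocks and were denser in some. Of 2506 blocks of 1 Mb with at least 200 eligible windows, the median block held 8 intermediate windows and 21 blocks held none. The tenth of blocks with the highest shares, 251 blocks, had 7.94% of eligible windows and 35.6% of intermediate windows, and was picked by that share, so its excess is a description. It held 56.3% of uniform windows and 10.95% of stepped windows. The highest share was 27.0%, 66 of 244 eligible windows, in the first block of chromosome 14 from 1 to 1000000, where eligible windows had a pooled level of 44.6% in Bull1 and 43.0% in Bull2. It was followed by the block on chromosome 9 from 2000001 to 3000000 with 23.3%, at pooled levels of 55.6% and 53.5%, and by the block on chromosome 2 from 2000001 to 3000000 with 22.3%, at 51.2% and 49.9%. On chromosome 15 the blocks from 11000001 to 12000000, from 13000001 to 14000000 and from 19000001 to 20000000 had 20.6%, 19.6% and 20.7%. These blocks were chosen after their values were seen.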
